A study of Mus musculus with 4 samples.

Results

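The genes described here are 41 genes of programmed cell death in mouse mammary cells: the BCL2 family, the caspases with their activators and inhibitors, and other genes that the study placed in pro- or anti-apoptotic groups. A gene belonged to the set if it was on a list of symbols, and its probes were found by the gene name in the scanner files. No threshold on the values was applied, but part of the list came from the study's own results on these samples. All 41 were on the array, out of 28146 gene names, with 71 probes in all. Of these genes, 10 (Dnase2a, Casp1, Casp4, Xaf1, Hsh2d, Faim3, Bcl7c, Bcl2l11, Atf5 and Adora1) were taken up by the study for how they differed on these same samples, so their differences are not independent evidence. The other 31 are given beside them.

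In the mitochondrial pathway of apoptosis, BH3-only proteins sense stress and free the effectors BAX and BAK1, which open the outer mitochondrial membrane unless anti-apoptotic members such as BCL2, BCL-xL and MCL1 hold them. Cytochrome c that leaks out assembles APAF1 and caspase-9 into the apoptosome, and inhibitor of apoptosis proteins restrain the caspases that follow. In the mammary gland this machinery removes most of the milk-producing epithelium after weaning, and glucocorticoids are known as survival signals for that epithelium.

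Both cell lines came from EPH-4, a non-malignant mouse mammary epithelial line that became immortal spontaneously. EV-50 carried the empty vector H1-2 and shGR-19 the same vector with a short hairpin RNA against the glucocorticoid receptor (GR); each was transfected along with the pBABE-puro marker and was grown in serum-free medium with 2 µg/ml puromycin and no added glucocorticoid. Each line grew from 1 colony, so that clone and hairpin cannot be told apart. RNA of each line was labelled with Cy3 in duplicate and read on 4 Agilent Whole Mouse Genome arrays of 1 slide, 2 for each line; nothing states that duplicates came from separate cultures, so p-values measure the spread between these samples, which may be technical.

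The values exist in 2 forms: as scanner signals, taken here on the log2 scale relative to the 75th percentile of their array, and as a deposited table of log2 values with the median of the 4 samples set to 0 for every probe. The sources differ. Over 13881 bright probes, the scanner arrays labelled replicate 1 of EV-50 and of shGR-19 differed from each other by an SD of only 0.0891 on the log2 scale, against 0.499 between the scanner arrays of EV-50 and 0.615 between those of shGR-19. The table's columns for the same replicate 1 samples differed by an SD of 0.434, with 0.105 and 0.0951 within the lines. Between the replicate 2 samples, the scanner and table differences correlated at 0.941 across these probes, which are not independent replicates. Nr3c1, which encodes GR and which the hairpin targets, differed by -1.94 ± 0.048 (SE, 2 samples per line) in the table, with an adjusted p of 0.00215, by -1.96 between the scanner arrays labelled replicate 2 and by -0.35 between those labelled replicate 1. The scanner arrays labelled replicate 1 thus showed little of the difference that their labels name. Whether these files belong to the samples they are labelled for was not tested, so that every scanner value of replicate 1, and every scanner test below, holds only for the files as labelled. Genes given sample by sample carry both sources, and the others the table alone.

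A probe was kept if both arrays of EV-50, or both of shGR-19, read it well above background; limma was run over all 24433 such probes, and a gene was read by its brightest one. Adjusted p-values are Benjamini-Hochberg values over all these probes, and a gene passed at an adjusted p below 0.01. For 37 of the 41 genes a probe was kept. In the table, 8 of the 37 were higher in shGR-19, against 5.52% of all kept probes, and 6 were lower, against 6.04%. More than 2-fold differences were found in 3 that were higher, against 1.87% of all kept probes, and in 4 that were lower, against 2.39%. The 28 kept genes that the study had not taken up gave 4 higher and 2 lower ones, and none of these differed more than 2-fold. Across the 37 genes the median log2 difference was -0.03, against 0.01 over all kept probes, and the median size was 0.47 (0.32 without the genes that the study took up), against 0.25. The samples of the lines did not overlap in 34 of the 37 genes, and in 71.9% of all kept probes. At an adjusted p below 0.05, 14 of the 37 were higher, against 18.3% of all kept probes, and 11 were lower, against 18.2%. The scanner files gave 0 passing members and 0 passing probes (0%) by limma, with 1 of the 37 and 0.835% of all probes at an unadjusted p below 0.05. Leaving out any 1 of the 4 samples left 0 passing members in the table by limma, with 22 to 27 of the 37 at an unadjusted p below 0.05, against 37.1% to 40.2% of all kept probes. In bulk RNA, fewer cells of a kind and less RNA per cell cannot be told apart.

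**Figure D1:**
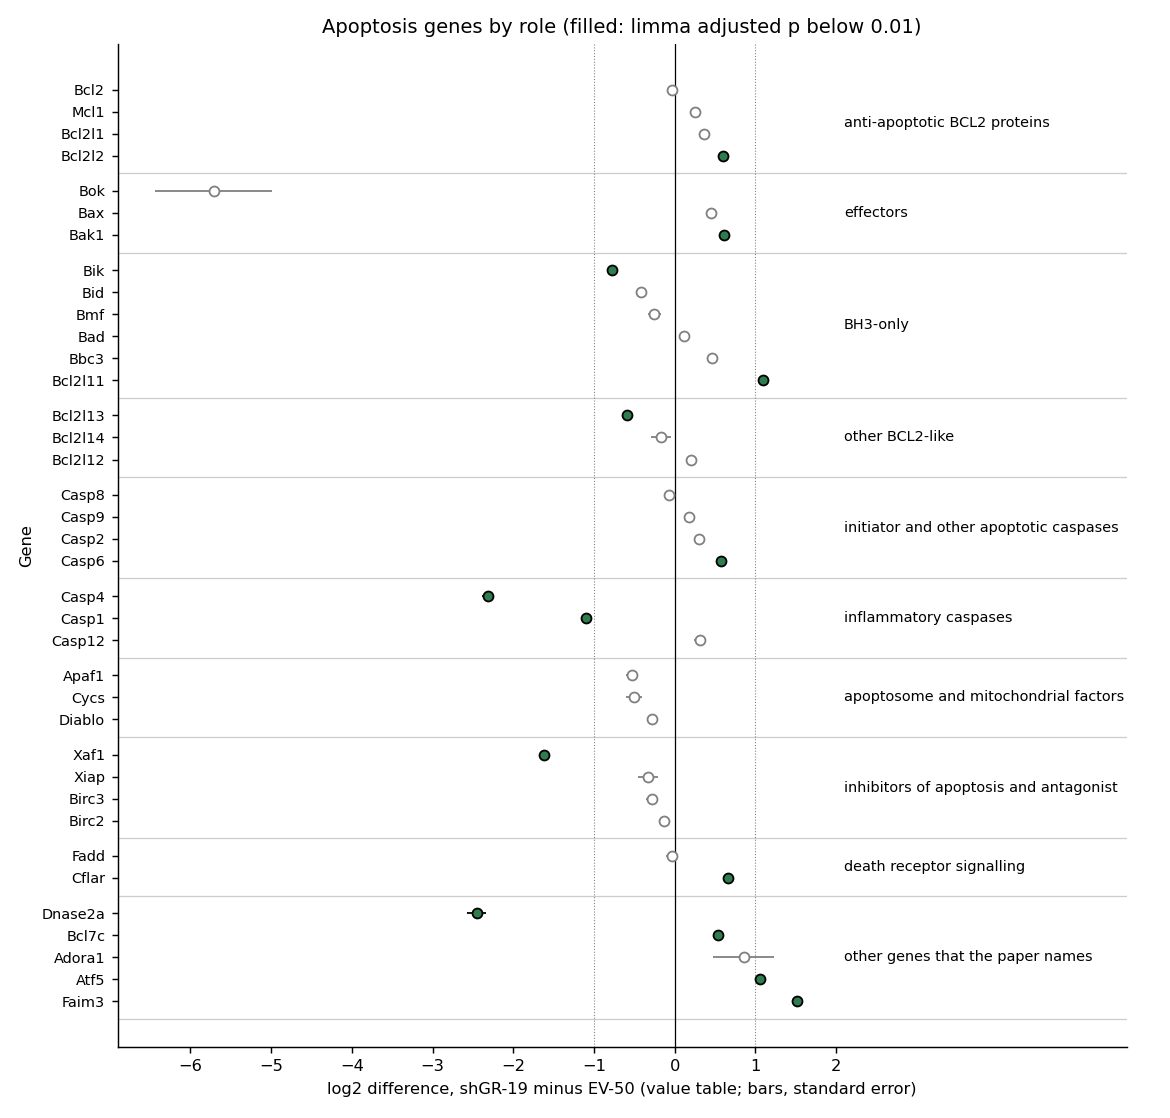
Log2 difference, shGR-19 minus EV-50, from the deposited table (x axis, with standard error; 2 samples per line) for the 37 genes with a kept probe (y axis), grouped by role; filled points passed limma at an adjusted p below 0.01 and dotted lines mark 2-fold. Casp4 and Dnase2a lie furthest to the left among the filled points and Faim3 furthest to the right, while Bok, at -5.71, has the widest error and did not pass.

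Several probes lie in coding sequence, and their letters show which part of a message was read. Shown are the probes of the BH3-only gene Bcl2l11, of the effector Bak1, of the anti-apoptotic Bcl2 and of Casp1, because that of Bcl2l11 gave a smaller difference than its gene's brighter probe, those of Bak1 and Bcl2 read the BCL2 homology region itself, and that of Casp1 crosses a splice junction. Each is 60 bases long, 5′ to 3′ on the strand of the message, with mm9 positions from the array annotation in the files.
Bcl2l11, chr2:127972893-127983988, plus strand: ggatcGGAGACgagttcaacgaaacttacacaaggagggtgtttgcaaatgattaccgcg
Bak1, chr17:27158232-27158291, minus strand: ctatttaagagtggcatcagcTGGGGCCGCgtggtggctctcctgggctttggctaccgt
Bcl2, chr1:108608970-108609029, minus strand: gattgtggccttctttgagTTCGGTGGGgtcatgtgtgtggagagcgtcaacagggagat
Casp1, chr9:5306226-5306728, plus strand: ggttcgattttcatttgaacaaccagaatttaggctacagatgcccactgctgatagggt
The capitals mark the Gly-Asp codons of the BH3 domain in Bcl2l11, the Trp-Gly-Arg codons of the BH1 domain in Bak1 and the Phe-Gly-Gly codons that end BH1 in Bcl2. No base is marked in Casp1. Because the Bcl2l11 and Casp1 intervals span 11096 and 503 bases of the genome for 60 bases of probe, these probes join exons.

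Of the 3 inflammatory caspases, Casp4 and Casp1 fell and Casp12 did not pass. Casp4, which encodes the mouse caspase-11 that binds bacterial lipopolysaccharide and cuts gasdermin D, had table values of 1.11 and 1.16 in EV-50 and of -1.11 and -1.25 in shGR-19. It fell 4.96-fold, a log2 difference of -2.31 ± 0.071 (SE) with an adjusted p of 0.0025. On the scanner scale it read -0.40 and 0.74 in EV-50 and -0.40 and -1.62 in shGR-19, so that all of its difference lay between the arrays labelled replicate 2. Casp1, the interleukin-1 beta converting enzyme, had table values of 0.62 and 0.52 in EV-50 and of -0.54 and -0.52 in shGR-19. It fell 2.14-fold (log2 difference -1.10 ± 0.058, adjusted p = 0.00399). Its scanner values were 1.05 and 2.18 in EV-50 and 1.02 and 1.07 in shGR-19, where a single array, EV-50 replicate 2, stood above the other 3. Casp12, a relative at the endoplasmic reticulum, read -0.12 and -0.13 in EV-50 and 0.27 and 0.12 in shGR-19 in the table, a log2 difference of 0.32 with an adjusted p of 0.0456 that did not pass. Casp12 scanner values were -1.18 and -0.07 in EV-50 and -1.24 and 0.26 in shGR-19, with the lines overlapping. The 3 genes lie side by side on chromosome 9, with their probes at 5306226, 5336645 and 5372258 on mm9, and the differences of the neighbours Casp4 and Casp12 had opposite signs. No other kept probe within 1 Mb passed: the kept probes there were those of Kbtbd3 and 8430410K20Rik, at log2 differences of -0.30, 0.07 and 0.19.

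Of the 4 apoptotic caspases in the set, Casp6 rose and the others did not pass. Casp6, an executioner that cuts lamins, read -0.32 and -0.26 in EV-50 and 0.26 and 0.30 in shGR-19 in the table, a 1.49-fold rise (log2 difference 0.57 ± 0.052, adjusted p = 0.00812). Its scanner signal was 2.35 and 2.92 in EV-50 and 2.23 and 3.66 in shGR-19, with the lines overlapping. Casp8, the initiator at death receptors, had the smallest difference of the 4: table values of 0.01 and 0.05 in EV-50 and of -0.06 and -0.01 in shGR-19, a log2 difference of -0.07 with an adjusted p of 0.357. Casp8 scanner values were 2.00 and 2.69 against 2.01 and 2.92, with replicate 2 above replicate 1 in both lines. The initiators Casp2 and Casp9 gave log2 differences of 0.30 (adjusted p = 0.0228) and 0.18 (adjusted p = 0.0847).

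Among the anti-apoptotic BCL2 genes, Bcl2l2 rose and no gene fell. Bcl2l2 encodes BCL-w, and its table values were -0.30 and -0.29 in EV-50 and 0.29 and 0.31 in shGR-19, a 1.51-fold rise (log2 difference 0.60 ± 0.046, adjusted p = 0.00634). On the scanner it read 0.25 and 0.21 in EV-50 and 0.26 and 0.90 in shGR-19, so that 1 array of shGR-19 stood above the other 3 arrays. Bcl2 itself, read by the BH1 probe printed above, was the least changed, with table values of 0.02 and -0.01 in EV-50 against 0.01 and -0.06 in shGR-19 and a log2 difference of -0.03 (adjusted p = 0.699). Its scanner values of 1.16, 1.27, 1.20 and 1.41, in the order EV-50 replicates 1 and 2 and shGR-19 replicates 1 and 2, also overlapped. Of its other probes, one gave 0.45 (adjusted p = 0.0109) and the other -0.10, so that no direction can be given for the gene. Bcl2l1, which encodes BCL-xL, lay at 0.36 (adjusted p = 0.0154) with its other probes at 0.36 and 0.29, and Mcl1 at 0.25 (adjusted p = 0.0461). Bcl2l10 was not well above background on any array.

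The effectors gave 1 called gene and, among the brightest probes of the 37 genes, the widest difference. Bak1, which builds pores in the outer mitochondrial membrane, had table values of -0.30 and -0.32 in EV-50 and of 0.30 and 0.31 in shGR-19. It rose 1.53-fold (log2 difference 0.61 ± 0.046, adjusted p = 0.00617), with scanner values of 2.29 and 2.37 in EV-50 and 2.21 and 2.88 in shGR-19. The BH1 probe printed above gave 0.27 and did not pass (adjusted p = 0.0473), and neither did the mean of the probes, at 0.44 (adjusted p = 0.0117). Bax, its partner, just missed the threshold with table values of -0.21 and -0.22 against 0.21 and 0.25, a log2 difference of 0.45 and an adjusted p of 0.0103, and its scanner values were 4.20 and 3.60 in EV-50 and 4.21 and 4.02 in shGR-19. Bok, the remaining effector, which acts at the endoplasmic reticulum and mitochondria, read 2.35 and 2.46 in EV-50 but -2.35 and -4.27 in shGR-19 in the table. Its log2 difference of -5.71 carried an SE of 0.725, because the samples of shGR-19 differed from each other by more than those of any other gene here, and its adjusted p was 0.0141. With the scanner it was -0.95 and -1.43 in EV-50 and -0.93 and -5.01 in shGR-19, well above background on all 4 arrays and low on 1. When the test took in only probes that all 4 arrays read well above background, Bok passed at an adjusted p of 0.00581 and Bax at 0.00463. With an intensity trend and robust prior they passed at 0.00616 and 2.12e-06. That setting passed 19.4% of all kept probes as higher and 19.2% as lower. With the mean of each gene's probes Bax passed at 0.00999 and Bok did not, at 0.0159. By limma with all probes tested, neither passed (adjusted p = 0.0412 for Bok and 0.0375 for Bax). The same held with replicate number as a block (0.0405 and 0.0345).

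**Figure D2:**
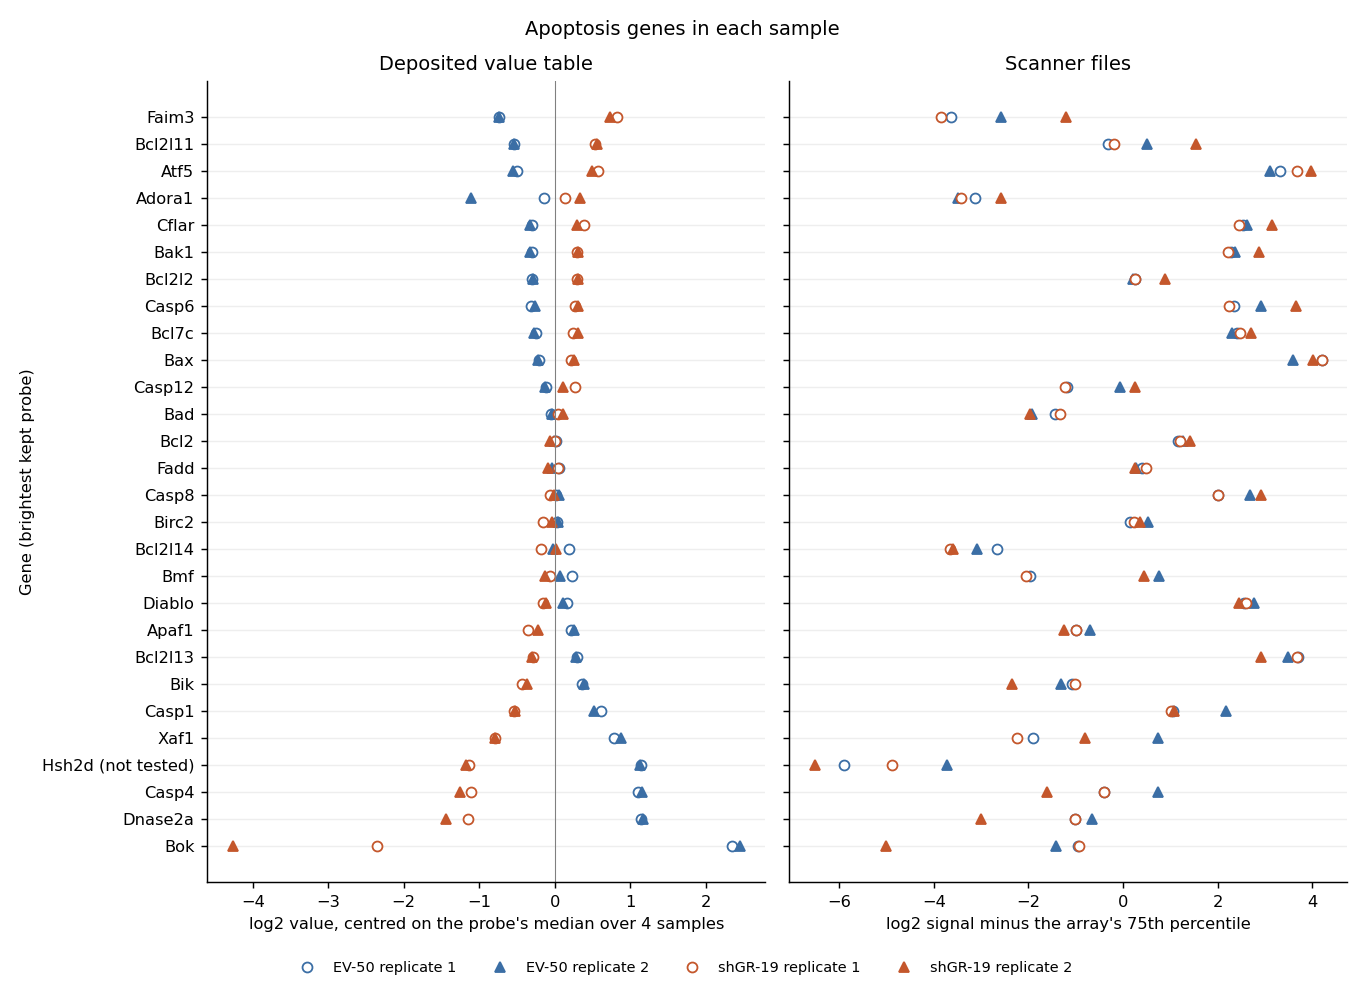
Values of the genes given sample by sample (y axis, 1 probe each) in the deposited table (left, log2 centred on the median of each probe) and in the scanner files (right, log2 signal relative to the 75th percentile), with EV-50 in blue, shGR-19 in orange, circles for replicate 1 and triangles for replicate 2. In the left panel the circle and triangle of a line lie together for nearly every gene; in the right panel the circles of both lines lie together for Casp4, Dnase2a and Bok while the triangles part, by -2.36, -2.34 and -3.59.

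The BH3-only genes moved in both directions. Bcl2l11, which encodes BIM, rose 2.14-fold at its brightest probe, from table values of -0.54 and -0.54 in EV-50 to 0.54 and 0.57 in shGR-19 (log2 difference 1.09 ± 0.046, adjusted p = 0.0033). Its scanner values were -0.32 and 0.52 in EV-50 and -0.19 and 1.54 in shGR-19. The BH3-domain probe printed above gave 0.25 with an adjusted p of 0.0718, so the probes, 4062 bases apart in the genome, did not show a rise of the same size. The mean of the probes was 0.67 (adjusted p = 0.00661), so that Bcl2l11 passed without reaching 2-fold and 2 genes in place of 3 were more than 2-fold higher. Bik, a BH3-only protein of the endoplasmic reticulum, fell 1.71-fold, from table values of 0.36 and 0.39 to -0.43 and -0.36 (log2 difference -0.77 ± 0.053, adjusted p = 0.00552). Bik scanner values fell on 1 array alone, at -1.08, -1.31, -1.01 and -2.35 in the order given above. Bad, which BCL-xL and BCL2 bind, moved least, with table values of -0.05 and -0.04 against 0.04 and 0.11, a log2 difference of 0.12 (adjusted p = 0.167) and scanner values of -1.44 and -1.94 against -1.34 and -1.97. Its brightest probe lies on the opposite strand to its other probe, which gave 0.29 (adjusted p = 0.0278). Bbc3, which encodes PUMA, lay at 0.47 (adjusted p = 0.012), Bid at -0.42 (adjusted p = 0.0141) and Bmf, with table values of 0.23 and 0.07 against -0.07 and -0.13, at -0.25 (adjusted p = 0.0926). The scanner signal of the brightest Bmf probe followed the replicate number and not the line: -1.98 and -2.06 on the arrays labelled replicate 1, 0.76 and 0.45 on those labelled replicate 2. The other kept Bmf probe differed little, at -3.23 and -3.31 on replicate 1 and -3.34 and -3.38 on replicate 2. A further Bmf probe, not kept, read -6.79 and -6.69 on replicate 1 and -4.66 and -5.14 on replicate 2. Pmaip1 and Hrk, which encode NOXA and HARAKIRI, were not well above background on any array.

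The less studied BCL2-like genes gave 1 called gene. Bcl2l13, a mitophagy receptor of the outer mitochondrial membrane, fell 1.5-fold, from table values of 0.30 and 0.29 to -0.29 and -0.30 (log2 difference -0.59 ± 0.046, adjusted p = 0.00653), with scanner values of 3.70 and 3.48 in EV-50 and 3.67 and 2.91 in shGR-19. The probe of Bid, on the other strand of chromosome 6, starts at 120843464 on mm9, close to that of Bcl2l13 at 120838670, and both differences were negative. Bcl2l14 had table values of 0.20 and -0.02 in EV-50 against -0.18 and 0.02 in shGR-19, a log2 difference of -0.17 (adjusted p = 0.337) with overlapping samples and, with a sample left out, between -0.28 and -0.06. Its scanner values, -2.67 and -3.10 in EV-50 and -3.67 and -3.60 in shGR-19, did not overlap, as for 8 of the 37 genes against 17.8% of all kept probes. Bcl2l12 lay at 0.20 (adjusted p = 0.0871).

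Apaf1, Cycs and Diablo, read as a class of apoptosome and mitochondrial factors, all had negative differences, and none of the 3 passed. Casp9, the caspase of the apoptosome, was given with the caspases above and had a positive difference, of 0.18. Apaf1, the scaffold of the apoptosome, had table values of 0.22 and 0.26 in EV-50 and -0.36 and -0.22 in shGR-19, a log2 difference of -0.53 (adjusted p = 0.0152), and scanner values of -1.0 and -0.69 against -1.0 and -1.25. Cycs, which encodes cytochrome c, lay at -0.50 (adjusted p = 0.0337), and its other probes both gave -0.43. Diablo, whose protein displaces inhibitors of apoptosis from caspases, had table values of 0.16 and 0.12 against -0.16 and -0.12, a log2 difference of -0.28 (adjusted p = 0.029), with scanner values of 2.56 and 2.77 against 2.59 and 2.45. Apaf1 passed at 0.0069 in the smaller set of probes that all 4 arrays read well above background. With the trend and robust prior, Apaf1 passed at 3.95e-05 and Diablo at 0.000742. By limma with all probes tested, neither passed (adjusted p = 0.0473 for Apaf1 and 0.0842 for Diablo). The same held with replicate number as a block (0.0355 and 0.0613).

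Of the inhibitor genes and their antagonist, Xaf1 stood apart. Xaf1 encodes an interferon-inducible protein that binds and opposes XIAP, and its table values were 0.79 and 0.88 in EV-50 against -0.79 and -0.79 in shGR-19. It fell 3.08-fold (log2 difference -1.62 ± 0.056, adjusted p = 0.00265). Its scanner values were -1.90 and 0.74 in EV-50 and -2.24 and -0.81 in shGR-19, a difference of -0.34 on the arrays labelled replicate 1 and of -1.55 on those labelled replicate 2. Birc2, the ubiquitin ligase cIAP1, moved least of the 4, with table values of 0.03 and 0.05 against -0.15 and -0.03, a log2 difference of -0.13 (adjusted p = 0.188) and scanner values of 0.14 and 0.52 against 0.23 and 0.36. Birc3 lay at -0.28 (adjusted p = 0.0639). Xiap, the direct caspase inhibitor, lay at -0.33 (adjusted p = 0.129) with its other probes at -0.16 and 0.17, so that its direction is not settled. The last of these was well above background in shGR-19 only, and its scanner signal was at least 1.48-fold higher there. Since it was kept only through shGR-19, that rise is not independent of the filter. In the table its samples overlapped (limma, adjusted p = 0.76). No other kept member probe was well above background in 1 line alone.

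In death receptor signalling, Cflar rose and Fadd did not pass. Cflar, which encodes the caspase-8 regulator c-FLIP, had table values of -0.30 and -0.32 in EV-50 and 0.39 and 0.30 in shGR-19, a 1.58-fold rise (log2 difference 0.66 ± 0.057, adjusted p = 0.00783), with scanner values of 2.52 and 2.62 against 2.45 and 3.14. Among its 6 probes, 1 other passed, at 0.55, while the rest lay between -0.10 and 0.66, and the mean of its probes, 0.34, did not pass (adjusted p = 0.0442). Fadd, the adaptor that recruits caspase-8, read 0.05 and -0.04 in EV-50 and 0.04 and -0.09 in shGR-19 in the table, a log2 difference of -0.03 ± 0.0745 (adjusted p = 0.755). Its scanner values of 0.40 and 0.26 against 0.49 and 0.26 overlapped, and its second probe gave 0.23, so that no direction can be given.

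The remaining genes are those of varied function that the study grouped with apoptosis. Dnase2a encodes the lysosomal nuclease that digests DNA of engulfed cells, and its brightest probe had table values of 1.15 and 1.18 in EV-50 and of -1.15 and -1.44 in shGR-19, a 5.48-fold fall (log2 difference -2.45 ± 0.12, adjusted p = 0.0037). Its scanner values were -1.01 and -0.65 against -1.01 and -2.99. The other probe fell by 6.12 on the log2 scale in the table. It was kept only through EV-50, where it was higher, so that its fall is not independent of the filter. On the scanner it read -0.83 and 0.20 in EV-50 and -0.74 and -6.07 in shGR-19. Only 1 array of shGR-19 read it well above background, so the size of its fall is uncertain. On mm9, 8142 bases separate the probes, more than the 2949 bases of the gene in RefSeq (GRCm38.p6). Whether they read 1 transcript was not tested. Faim3, named Fcmr in RefSeq and encoding a receptor for immunoglobulin M, rose 2.86-fold, from table values of -0.74 and -0.73 to 0.82 and 0.73 (log2 difference 1.51 ± 0.057, adjusted p = 0.00289). Its scanner signal was low, at -3.64 and -2.58 in EV-50 and -3.84 and -1.21 in shGR-19, and only the arrays labelled replicate 2 differed in that direction. Atf5, a transcription factor of the stress response, rose 2.09-fold, from table values of -0.50 and -0.55 to 0.58 and 0.50 (log2 difference 1.06 ± 0.057, adjusted p = 0.00411). Of the 7 genes past 2-fold in the table, the scanner arrays of the lines did not overlap for Atf5 and Dnase2a alone. Among all kept probes, 17.8% did not overlap. Atf5 read 3.31 and 3.10 in EV-50 against 3.68 and 3.97 in shGR-19. For Dnase2a the arrays labelled replicate 1 were nearly equal, at -1.007 in EV-50 and -1.011 in shGR-19, a difference of only -0.004. Bcl7c, a subunit of the SWI/SNF chromatin remodeller and no relative of BCL2, rose 1.45-fold, from table values of -0.24 and -0.27 to 0.24 and 0.31 (log2 difference 0.53 ± 0.053, adjusted p = 0.00935), and all 3 of its probes passed. Its scanner values were 2.41 and 2.30 against 2.47 and 2.71. Adora1, the adenosine A1 receptor, had table values of -0.14 and -1.10 in EV-50 against 0.14 and 0.33 in shGR-19, a log2 difference of 0.86 that did not pass (adjusted p = 0.165), and scanner values of -3.13 and -3.50 against -3.43 and -2.59. The difference was 1.34 without EV-50 replicate 1 and 0.37 without EV-50 replicate 2 (adjusted p = 0.0431 and 0.154). The other kept probe of Adora1 gave -0.03 (adjusted p = 0.923) with overlapping samples, and the mean of the 2 kept probes was 0.41 (adjusted p = 0.346). No direction can thus be given for the gene. A dimmer probe, not kept, had a table difference of 2.89 but was well above background on 1 array of shGR-19 alone. The mean scanner signal of that probe over both shGR-19 arrays was at least 1.11-fold above that in EV-50. Hsh2d, an adaptor of blood cells, was well above background on 1 array of each line and was not tested; its table values were 1.14 and 1.13 against -1.13 and -1.18, and its scanner values -5.89 and -3.73 against -4.89 and -6.52.

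**Figure D3:**
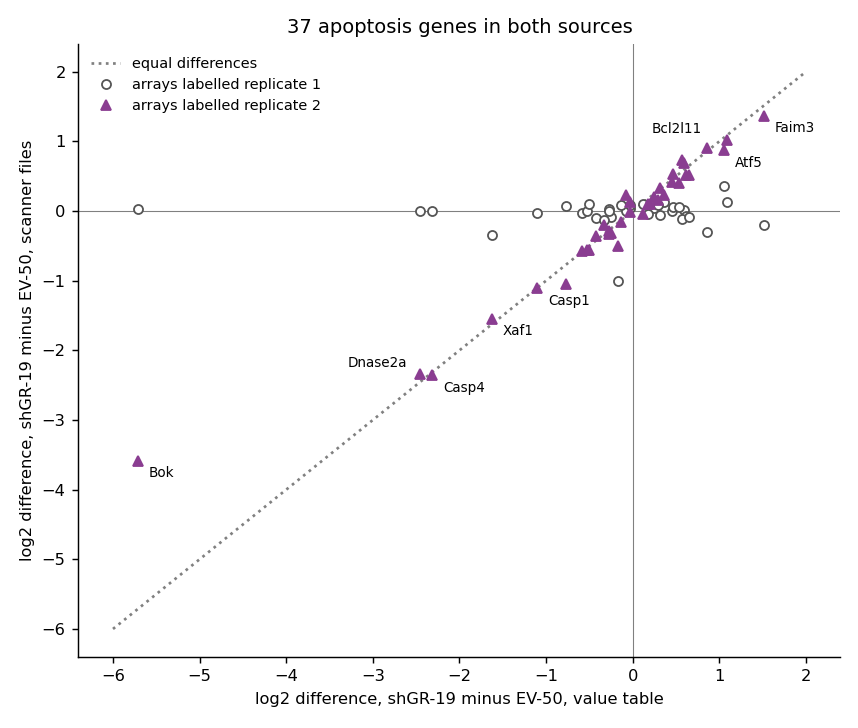
Log2 difference, shGR-19 minus EV-50, of each of the 37 genes in the deposited table (x axis) against that in the scanner files (y axis), with circles for the arrays labelled replicate 1 and triangles for those labelled replicate 2; the dotted line marks equal differences. Triangles follow the dotted line except for Bok, while circles stay near 0 on the y axis, from -0.997 (Bcl2l14) to 0.37 (Atf5).

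Set side by side, the scanner pair labelled replicate 2 had the direction of the table for 34 of the 37 genes and for all 14 that passed, and 8 of the 37 differed more than 2-fold, against 5.56% of all kept probes. The pair labelled replicate 1 had that direction for 19 of the 37 and for 8 of the 14, and 0 of the 37 differed more than 2-fold, against 3.57%. The replicate 2 samples are common to table and scanner, so this is no independent repeat. Of 17 genes with several kept probes, 5 (Adora1, Bcl2, Cflar, Fadd and Xiap) had probes of both directions and 3 (Bak1, Bcl2l11 and Cflar) had probes on both sides of the threshold.

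Start sites of these genes were searched for AGAACA, the hexamer that a single GR molecule contacts, since GR is the factor depleted. RefSeq (GRCm38.p6) gave 300-base windows, from 250 bases before the start to 50 after it, for 38 of the 41 genes, 53 windows in all. This hexamer, on either strand, was in 7 of the 53 windows (13.2%), those of Bcl2l14, Bok, Casp1, Fadd, Hsh2d and Xiap, and in 19% of all 32851 windows. Shown are those of Casp1, which fell, and of Bok, which had the widest difference, with the hexamer in capitals, read on the opposite strand.
Casp1, chr9:5298267-5298566, plus strand: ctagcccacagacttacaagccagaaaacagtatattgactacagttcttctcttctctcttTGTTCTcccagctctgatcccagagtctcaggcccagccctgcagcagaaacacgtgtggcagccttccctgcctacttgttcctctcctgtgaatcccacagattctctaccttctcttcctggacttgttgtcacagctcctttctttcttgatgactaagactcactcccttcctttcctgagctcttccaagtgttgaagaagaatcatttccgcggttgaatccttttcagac
Bok, chr1:93685325-93685624, plus strand: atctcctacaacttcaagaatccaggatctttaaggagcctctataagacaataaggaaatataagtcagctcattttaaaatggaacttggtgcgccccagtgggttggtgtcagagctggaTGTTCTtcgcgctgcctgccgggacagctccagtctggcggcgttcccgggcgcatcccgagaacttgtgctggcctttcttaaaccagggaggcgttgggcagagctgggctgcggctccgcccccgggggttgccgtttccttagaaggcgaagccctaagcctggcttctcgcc
The letters begin 188 bases before the start in Casp1 and 127 bases before it in Bok. The interferon response core GAAANNGAA, searched on both strands, was in 3 of the 53 windows (5.66%; Bcl2l12, Cflar and Xiap), against 8.56% of all windows, and the ETS site CCGGAAGT in 2 (3.77%; Bcl2l1 and Diablo), against 3.89%. The windows of Casp4 and Dnase2a held none of the 3 motifs.

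Other genes of the pathway came from lists written for this comparison. Of 11 kept death receptor genes and adaptors, 3 fell, against 6.04% of all kept probes, and none rose, against 5.52%. Fas, the receptor of Fas ligand, was at -0.96 (adjusted p = 0.00394), Tnfrsf10b, the mouse TRAIL receptor, at -0.93 (adjusted p = 0.00599), and Mlkl, the effector of necroptosis, at -0.54 (adjusted p = 0.00736). The list of inflammasome genes also held the bacterial sensors Nod1 and Nod2, and of its 5 kept genes 2 fell, against the same 6.04%. These were Il18, a cytokine that caspase-1 matures, at -1.03 (adjusted p = 0.0037), and Nod1 at -0.91 (adjusted p = 0.00419). Nlrp3, Pycard and Nod2 did not pass, at -0.31, 0.30 and -0.41. The sensors Nlrc4 and Aim2 and the cytokine Il1b were not well above background on any array. Among 6 kept genes, those of caspase substrates with their partners and Casp14, the caspase of the cornifying epidermis, only Rock1, a kinase that caspase cleavage activates in membrane blebbing, passed, at -0.59 (adjusted p = 0.00707). None of 10 mitochondrial genes and none of 8 further inhibitors passed. For these lists and that of Rock1 the shares of all kept probes were the same, 5.52% higher and 6.04% lower.

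**Figure D4:**
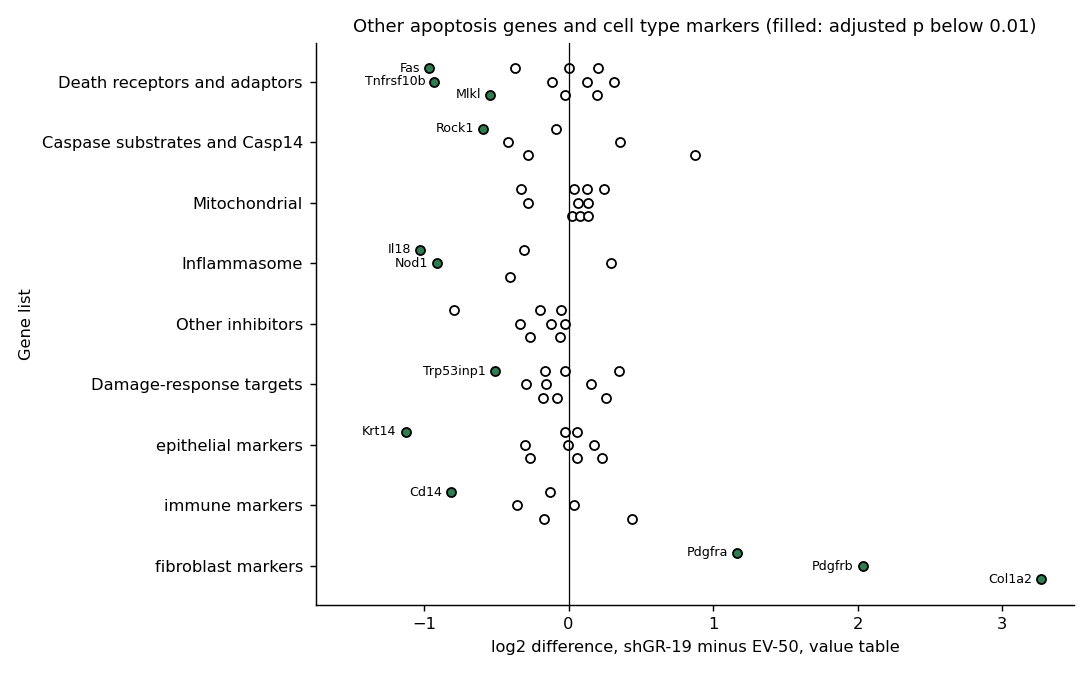
Log2 difference, shGR-19 minus EV-50, from the deposited table (x axis; 2 samples per line) for other apoptosis genes and for cell type markers (y axis, 1 row per list, 1 point per gene); filled points passed limma at an adjusted p below 0.01. Every filled point of the apoptosis lists lies to the left of 0, from Il18 at -1.03 to Trp53inp1 at -0.51, and the filled fibroblast markers lie to the right.

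Of 10 epithelial markers on the array, 9 were well above background on all 4 arrays, and Krt14 fell (log2 difference -1.13, adjusted p = 0.00332) while Krt8, Krt18, Cdh1 and Epcam did not pass. The immune markers Ptprc, Cd79b, Emr1 and Itgam were not well above background on any array, and of the 6 that were kept only Cd14 passed, at -0.81. Beside the falls of Krt14 and Cd14, 6.04% of all kept probes fell. Of 7 fibroblast markers 3 were kept and all of these rose, against 5.52% of all kept probes. The log2 differences were 3.27 for Col1a2, 2.03 for Pdgfrb and 1.16 for Pdgfra. Pdgfra was kept only through shGR-19, where it was higher, since EV-50 replicate 1 did not read it well above background. Its rise is thus not independent of that filter. The summed signal of the 3 kept probes was 972 and 3760 in EV-50 and 947 and 26566 in shGR-19. Dcn was at background, and Col1a1, Col3a1 and Thy1 were on the array but not kept. The passing markers differed between the lines in the table, as the passing apoptosis genes did. Most of the epithelial and immune markers that were kept did not pass. The part of all these markers in the differences above was not tested.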

How the data were processed

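EPH-4 mouse mammary epithelial lines EV-50 (empty vector) and shGR-19 (hairpin against GR) were compared, with 2 samples each, grouped by the labels. The authors hybridized Cy3-labelled RNA to Agilent Whole Mouse Genome arrays and deposited the intensity of each spot, background-subtracted by Feature Extraction 10.5.1.1 with default one-colour settings. The authors also deposited log2 values made in GeneSpring and centred per probe. The column medians of that table were 0.0763, 0.0381, -0.056 and -0.0634.

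From the intensities, control and outlier spots were dropped, spots of a probe were averaged, and each log2 signal was scaled to its array's 75th percentile (541.9 to 613.3). Spots well above background numbered 23215 to 27307 per array, none was saturated, and the number of arrays limits precision. Table and scanner values were fitted separately with limma 3.58.1 in R 4.3.3 (lmFit, eBayes), with Benjamini-Hochberg adjustment. The fold limit of 2 and the p of 0.01 are those of the study's methods, which name no adjustment. "At least" folds compare the brighter line with the dimmer line at its own signal or the lowest signal well above background, whichever was higher. Genes given sample by sample were those that the study took up, those past 2-fold and 0.01, and in each role class the widest and narrowest difference, besides Bak1, Bik and Bmf, chosen after their values were seen; members and lists were chosen with earlier results of these data known. A pair of genes on the list with the caspase substrates is not reported here. The fits were tested on simulated data. Probe sequences and mm9 positions are from the scanner files, promoters from RefSeq. Alternatives were normexp (offset 50), quantile scaling, other filters and priors (statmod 1.5.0), a block for replicate number, leaving out each sample, an adjusted p below 0.05, a plain equal-variance test and the mean of a gene's probes.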

Additional observations from a re-analysis of the deposited data

How the results depend on the processing

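The 14 members that passed in the table (8 higher, 6 lower; 3 and 4 of them past 2-fold) rest on the 4 table columns together. Each of these 4 counts was 0 in the scanner files, with all probes kept (26 of the 37 at an unadjusted p below 0.05, against 41.2% of all probes) and by the plain equal-variance test with adjustment (24 of the 37, against 40.1%). Leaving out each sample in turn gave 0 to 0 for each count; a lone sample was then assumed to vary like the other line. With an intensity trend and robust prior 13 were higher and 11 lower, against 19.4% and 19.2% of all kept probes, and at an adjusted p below 0.05 the numbers were 14 and 11, against 18.3% and 18.2%. The replicate number as a block gave 0 in each count, with 28 of the 37 at an unadjusted p below 0.05 by limma, against 49.5% of all kept probes; replicate 1 minus 2 correlated between the lines at 0.707 in the scanner files and 0.382 in the table, but 2 pairs that share only a number are not a paired design. In the scanner files no member passed under any of the alternatives run, among them normexp, quantile scaling and the block.

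Of the genes given sample by sample that were tested, 3 changed sign, none of which passed. Bcl2 was at 0.0886 in the scanner files and at 0.11 as the mean of its probes, and between -0.0626 and 0.0036 with a sample left out. Casp8 was at 0.12 in the scanner files. Fadd was at 0.0418 in the scanner files and at 0.10 as the mean of its probes, and between -0.0986 and 0.0307 with a sample left out. The cause was not tested. The scalings moved the median of all kept probes to at most 0.03.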

Other observations

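Genes that p53 switches on after DNA damage, among them regulators of growth arrest and death, were read as a further list. All 10 had a kept probe, 1 fell, against 6.04% of all kept probes, and none rose, against 5.52%. Trp53inp1, which promotes apoptosis and autophagy, was at -0.51 (limma, adjusted p = 0.00881). Its difference was -0.70 between the scanner arrays labelled replicate 2 and -0.10 between those labelled replicate 1. Cdkn1a, the cell cycle inhibitor p21, lay at 0.15 (adjusted p = 0.127), Mdm2 at -0.17 (adjusted p = 0.256) and Perp at -0.16 (adjusted p = 0.111), and the median of the 10 was -0.12.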
